A study of Mus musculus with 12 samples.

Results

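The genes described here are 10 members of the NRF2, cystine import and glutathione system, all found by symbol among the 56748 identified genes of a read count table from mouse macrophages. They are Nfe2l2, Slc7a11, Slc3a2, Gclc, Gclm, Gsr, Hmox1, Nqo1, Txnrd1 and Srxn1, and all 10 passed the filter on low counts. The cells were bone-marrow-derived macrophages (BMDMs), primary cells grown from C57BL/6N marrow for 7 days in medium conditioned by L929 cells, a fibroblast line that secretes macrophage growth factor. There were 4 groups of 3 libraries: Alpk1-/- cells (KO) given 100 µM ADP-Hep for 4 h, KO cells given PBS for 4 h, wild-type cells (WT) given 100 µM ADP-Hep for 4 h, and WT cells given PBS for 4 h. ADP-Hep is ADP-heptose, a bacterial sugar nucleotide that activates the kinase ALPK1. The labels describe the knockout only as Alpk1-/-, without the deleted part, and do not say whether libraries of a group came from separate mice or cultures. The p-values thus set differences between groups against the scatter of these 12 libraries within their groups, and that scatter may be technical only. The design asks what ADP-Hep does in each genotype and which part of the response needs ALPK1.

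NRF2, the protein encoded by Nfe2l2, is a transcription factor that is held low by the adaptor KEAP1, which hands it to a ubiquitin ligase. When KEAP1 is modified by oxidants or electrophiles, NRF2 builds up, pairs with small MAF proteins and binds antioxidant response elements in DNA. Its known targets import cystine (Slc7a11, whose protein pairs with the heavy chain encoded by Slc3a2), make glutathione from cysteine (Gclc and Gclm, the catalytic and modifier subunits of glutamate-cysteine ligase), recycle it (Gsr, glutathione reductase) and run the thioredoxin branch (Txnrd1, thioredoxin reductase, and Srxn1, sulfiredoxin, which restores over-oxidised peroxiredoxins). Hmox1, which breaks down heme, and Nqo1, which reduces quinones, are classic target genes of the same factor. In macrophages these genes are best known for protection against oxidants, such as those of the oxidative burst, and for heme and iron handling. Slc7a11 is also known as a target of the stress factor ATF4.

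The promoters below are shown because they belong to the member with the largest difference between genotypes in the response to ADP-Hep (Slc7a11) and to the members whose promoter held the core of an antioxidant response element. They come from RefSeq on GRCm38.p6 and run from 250 bases before to 50 bases after the annotated start, 5′ to 3′ on the strand of the gene. Capitals mark matches, on either strand, to 4 short motifs: TGACNNNGC (antioxidant response element core), TGANTCA (AP-1), GGNNNTTCC (NF-kB) and TGATGNAA (ATF4 composite element).
Slc7a11, chr3:50443564-50443863, minus strand: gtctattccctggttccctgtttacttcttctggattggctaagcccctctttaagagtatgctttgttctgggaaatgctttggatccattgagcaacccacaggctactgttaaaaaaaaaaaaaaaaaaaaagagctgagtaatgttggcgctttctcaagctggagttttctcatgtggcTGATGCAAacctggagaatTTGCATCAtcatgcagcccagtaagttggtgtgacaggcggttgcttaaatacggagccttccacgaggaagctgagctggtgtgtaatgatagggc
Txnrd1, the middle of 3 listed starts, chr10:82858956-82859255, plus strand: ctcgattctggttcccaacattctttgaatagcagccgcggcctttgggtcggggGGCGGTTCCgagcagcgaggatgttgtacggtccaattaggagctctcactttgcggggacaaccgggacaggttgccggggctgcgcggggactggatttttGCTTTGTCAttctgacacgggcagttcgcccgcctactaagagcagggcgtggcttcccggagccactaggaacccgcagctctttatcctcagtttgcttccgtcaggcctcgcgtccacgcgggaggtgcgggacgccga
Srxn1, chr2:152105274-152105573, plus strand: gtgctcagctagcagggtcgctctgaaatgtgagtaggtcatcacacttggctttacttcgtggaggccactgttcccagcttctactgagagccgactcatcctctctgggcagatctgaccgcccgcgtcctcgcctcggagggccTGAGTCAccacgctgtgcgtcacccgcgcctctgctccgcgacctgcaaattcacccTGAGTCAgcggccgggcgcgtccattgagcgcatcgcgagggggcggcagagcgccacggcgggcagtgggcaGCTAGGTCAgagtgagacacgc
Nfe2l2, chr2:75704614-75704913, minus strand: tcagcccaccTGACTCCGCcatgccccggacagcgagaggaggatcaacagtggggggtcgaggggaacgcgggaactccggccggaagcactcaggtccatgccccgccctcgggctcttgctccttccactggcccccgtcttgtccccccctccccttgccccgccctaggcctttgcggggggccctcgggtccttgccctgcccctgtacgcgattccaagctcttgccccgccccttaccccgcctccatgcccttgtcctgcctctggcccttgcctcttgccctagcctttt
Gclm, chr3:122245307-122245606, plus strand: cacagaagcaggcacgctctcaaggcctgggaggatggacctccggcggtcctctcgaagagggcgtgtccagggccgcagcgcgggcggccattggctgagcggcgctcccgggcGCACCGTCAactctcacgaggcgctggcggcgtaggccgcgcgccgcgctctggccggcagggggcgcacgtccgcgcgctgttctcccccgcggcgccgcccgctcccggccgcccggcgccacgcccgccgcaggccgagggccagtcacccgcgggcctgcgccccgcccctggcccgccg

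The table held 9 promoters of 7 members, and Gclc, Gsr and Hmox1 had no entry. The antioxidant response element core was present in 4 of these 9 promoters, 1 for each of 4 members, against 12.4% of the 32851 promoters of the table. It began at base -240 from the start of Nfe2l2, -134 of Gclm, -92 of the middle Txnrd1 start and 29 of Srxn1, on the minus strand of the printed sequence in all but Nfe2l2. The Slc7a11 promoter held no such core but 2 ATF4 composite elements, in opposite orientation and beginning at -66 and -47, a motif present in 3.97% of all promoters. Srxn1 also held 2 AP-1 motifs, at -102 and -45, each read on both strands (7.81% of all promoters hold one), and the middle Txnrd1 promoter held 1 NF-kB motif at -195 (18.5% of all promoters). An AP-1 motif can lie inside an antioxidant response element core, but no 2 matches overlapped in these windows. The promoters of Slc3a2 and Nqo1 and the other two of Txnrd1 held none of the 4 motifs. These matches describe letters in a 300-base window and do not show binding.

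The libraries held 16110654 to 31333973 counts. From 1 row of the table on, the KO columns sat 1 row lower than the gene identifiers. Comparisons therefore used the 37542 rows above that place, which hold all 10 genes and 71.3% to 85.2% of the counts of a library. The 8 macrophage markers (among them Adgre1, Csf1r and Lyz2) summed to between 24820 and 27963 CPM, the read count scaled to the library's size, in every library, and markers of dendritic, stromal, lymphoid, erythroid and mast cells summed to at most 4.1 CPM each. The T cell genes Cd3e and Cd3g and the hemoglobin genes Hba-a1, Hbb-bs and Hbb-bt were at 0 counts in every library. Reads over Alpk1 were not absent from the knockout: it had 21.6, 19.2 and 22.4 CPM in KO ADP-Hep libraries and 22.3, 20.2 and 21.3 CPM in KO PBS libraries, against 53.8, 55.2 and 52.3 CPM in WT ADP-Hep libraries and 30.1, 32.1 and 25.8 CPM in WT PBS libraries. All KO libraries were thus below all WT libraries, with a log2 change of -1.34 ± 0.07 under ADP-Hep and -0.45 ± 0.08 under PBS. Whether the counted exons include the deleted part is not given in the sources used here. One KO ADP-Hep column could be tied to its group but not to a replicate number, and its values are given last in that group.

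In WT cells ADP-Hep raised all 10 genes. In KO cells it raised none and lowered Nfe2l2, and also Hmox1 by a call that DESeq2 and limma-voom did not make. By edgeR's quasi-likelihood test with Benjamini-Hochberg adjustment over 12261 genes, called at an adjusted p under 0.05, 10 of 10 were higher in WT cells, where 63.5% of all genes tested were called in either direction and 31.9% were called higher. For all 10 the 3 WT ADP-Hep libraries were above the 3 WT PBS libraries, where 32.7% of all genes were wholly higher. In KO cells 2 of 10 were called, both lower, where 28.9% of all genes were called, 13.7% higher and 15.3% lower. There the libraries were wholly lower for Nfe2l2 and Hmox1 and wholly higher for Slc3a2, where 20.9% and 21.1% of all genes did not overlap in these directions. The number higher in KO cells was also 0 at an unadjusted p under 0.05, with DESeq2 and with limma-voom. The number lower in KO cells was 3, 2 and 1 by these. DESeq2 called Slc7a11 lower (adjusted p = 0.0487) and did not call Hmox1 (adjusted p = 0.0702). The difference of the 2 responses (KO minus WT) was called for 9 of 10, all below 0, where 49.5% of all genes were called, 24.9% above 0 and 24.6% below. For 6 of them it was at least 2-fold, where 11.7% of all genes were called at that size. Only Nqo1 was not called, at -0.28 ± 0.13 on the log2 scale (adjusted p = 0.074). The median log2 change of the 10 genes was -0.13 in KO cells, 0.88 in WT cells and -1.21 for the difference, beside medians over all genes of 0.01, -0.01 and 0.01. The KO and WT responses have no libraries in common, but the difference is built from both.

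**Figure D1:**
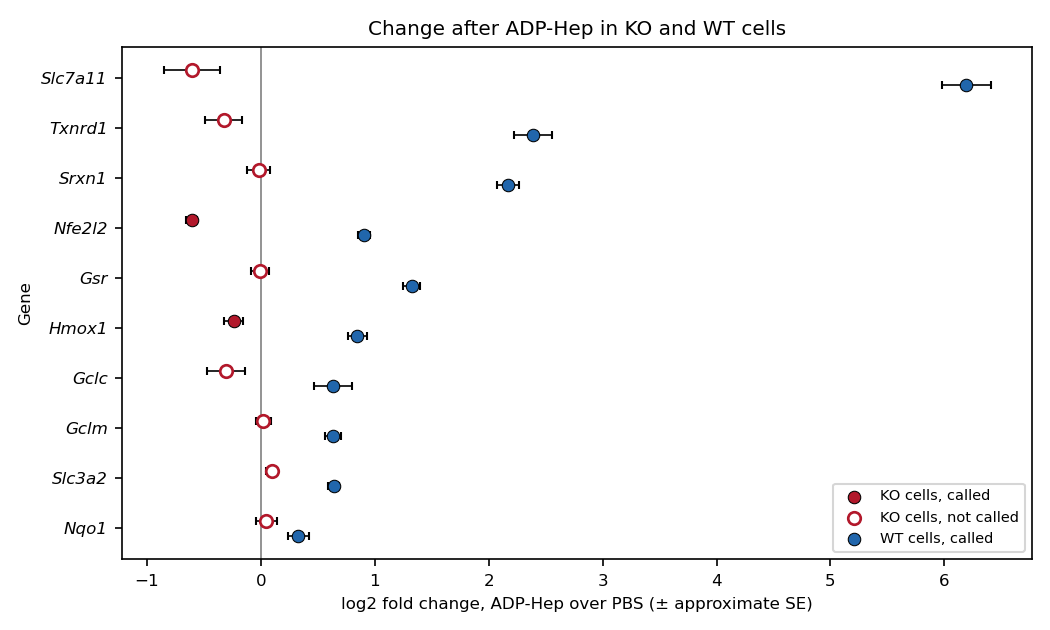
Log2 fold change of each of the 10 genes after ADP-Hep in KO cells (red, upper point of each pair) and WT cells (blue, lower point), from the edgeR fit of 12 libraries, with approximate standard errors as bars and open points for changes that were not called. All 10 WT points lie right of 0, from 0.33 for Nqo1 to 6.19 for Slc7a11, and the KO points lie between -0.61 and 0.10.

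Nfe2l2 (ENSMUSG00000015839, chr2:75675513-75704641 on mm10) moved in opposite directions in the 2 genotypes. It had 171, 172 and 179 CPM in KO ADP-Hep libraries, against 269, 244 and 283 CPM in KO PBS libraries. It had 470.5, 456 and 476 CPM in WT ADP-Hep libraries, against 244, 245 and 259.5 CPM in WT PBS libraries. The KO ADP-Hep libraries lay below all others and the WT ADP-Hep libraries above all others, with no overlap, while the PBS libraries of the 2 genotypes overlapped. The log2 change was -0.61 ± 0.05 in KO cells (adjusted p = 1e-09) and 0.90 ± 0.05 in WT cells (adjusted p = 1.9e-14), and the difference was -1.51 ± 0.07. These standard errors, here and throughout, are the size of the log2 change divided by the square root of its F statistic, an approximation. NRF2 protein is controlled mainly through its breakdown, and protein was not measured.

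Slc7a11 (ENSMUSG00000027737, chr3:49892526-50443614), the cystine carrier, showed the largest change of the 10 in WT cells and in the difference of responses. It had 11.4, 13.5 and 12.2 CPM in KO ADP-Hep libraries, against 24.1, 11.3 and 21.5 CPM in KO PBS libraries. It had 559, 585 and 607 CPM in WT ADP-Hep libraries, against 7.61, 6.90 and 8.91 CPM in WT PBS libraries. WT ADP-Hep libraries were thus far above the rest, WT PBS libraries were lowest, and the KO groups overlapped through replicate 2 of KO PBS. The 73.2-fold rise in WT cells, a log2 change of 6.19 ± 0.21 (adjusted p = 5.5e-09), ranked 9 from the highest of 12261 genes. The change in KO cells was -0.60 ± 0.25 (adjusted p = 0.107) and was not called. Some other fits did call Slc7a11 lower in KO cells. These were DESeq2 (adjusted p = 0.0487), edgeR without robust estimation, edgeR with library totals over all rows, and edgeR without KO PBS replicate 2. The difference, -6.80 ± 0.34, ranked 5 from the lowest of 12261 genes.

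Its heavy chain partner Slc3a2 (ENSMUSG00000010095, chr19:8706882-8723369) moved much less. Slc3a2 had 277, 299.6 and 283 CPM in KO ADP-Hep libraries, against 272, 273 and 258 CPM in KO PBS libraries. It had 413, 432 and 457 CPM in WT ADP-Hep libraries, against 287, 280.2 and 268 CPM in WT PBS libraries. Only the WT ADP-Hep libraries stood apart from both PBS groups by more than a few CPM. The log2 change was 0.10 ± 0.05 in KO cells (adjusted p = 0.13), with all 3 KO ADP-Hep libraries above all 3 KO PBS libraries and a call by library totals over the rows used, and 0.64 ± 0.05 in WT cells (adjusted p = 8.4e-12). Per kilobase of exon, Slc3a2 was 87.5 to 96.0 times as abundant as Slc7a11 in KO ADP-Hep libraries, 44.5 to 95.5 times in KO PBS libraries, 2.91 to 2.97 times in WT ADP-Hep libraries and 119 to 160.2 times in WT PBS libraries. Of the summed CPM of Slc7a11 and the 5 other light chains that pair with SLC3A2, Slc7a11 made up 2.14% to 2.23% in KO ADP-Hep libraries, 2.31% to 5.12% in KO PBS libraries, 43.3% to 44.1% in WT ADP-Hep libraries and 1.36% to 2.09% in WT PBS libraries. These are shares of reads with no correction for length, unlike the ratios per kilobase, and Slc7a11 has 13922 exon bases.

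The subunits of glutamate-cysteine ligase, which makes the first and rate-limiting step to glutathione, rose by like amounts in WT cells, and neither was called in KO cells. Gclc (ENSMUSG00000032350, chr9:77754535-77794485) had 42.2, 40.3 and 46.0 CPM in KO ADP-Hep libraries, against 59.8, 38.4 and 62.9 CPM in KO PBS libraries. It had 52.7, 57.5 and 61.2 CPM in WT ADP-Hep libraries, against 37.7, 32.6 and 39.0 CPM in WT PBS libraries. The KO groups overlapped and the WT groups did not. Its log2 change was -0.31 ± 0.17 in KO cells (adjusted p = 0.21) and 0.63 ± 0.17 in WT cells (adjusted p = 0.0081), with a difference of -0.94 ± 0.24 (adjusted p = 0.0087).

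Gclm (ENSMUSG00000028124, chr3:122245557-122270732), the modifier subunit, had 434, 394 and 438 CPM in KO ADP-Hep libraries, against 436, 364 and 451 CPM in KO PBS libraries. It had 421, 399.8 and 438 CPM in WT ADP-Hep libraries, against 265, 259 and 286 CPM in WT PBS libraries. The 2 KO groups and the WT ADP-Hep group covered the same range, and WT PBS libraries alone were lower. Gclm changed by 0.02 ± 0.07 in KO cells (adjusted p = 0.86) and by 0.63 ± 0.07 in WT cells (adjusted p = 1.4e-07), so its difference of -0.61 ± 0.10 goes with a higher level in KO cells before treatment and not with a lower one after it. A gene on the opposite strand, Gm17494, covers 4.71% of the Gclm exon bases. That gene held at most 20 counts in a library. Per kilobase, Gclm was 5.71 to 6.16 times as abundant as Gclc in KO ADP-Hep libraries, 4.29 to 5.68 times in KO PBS libraries (the highest in replicate 2), 4.16 to 4.78 times in WT ADP-Hep libraries and 4.21 to 4.76 times in WT PBS libraries.

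Gsr (ENSMUSG00000031584, chr8:33652523-33698163), which reduces oxidised glutathione with NADPH, had 87.2, 87.7 and 83.3 CPM in KO ADP-Hep libraries, against 84.9, 74.9 and 101 CPM in KO PBS libraries. It had 178, 182 and 197 CPM in WT ADP-Hep libraries, against 75.6, 71.1 and 74.9 CPM in WT PBS libraries. The WT ADP-Hep libraries were above all 9 others. The 2.50-fold rise in WT cells, 1.32 ± 0.07 on the log2 scale (adjusted p = 4.9e-12), contrasted with -0.01 ± 0.08 in KO cells, and the difference was -1.33 ± 0.11.

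In WT cells, and in the difference of responses, the thioredoxin branch gave the next largest changes after Slc7a11. In KO cells neither of its genes was called. Txnrd1 (ENSMUSG00000020250, chr10:82833951-82897712) had 222, 213 and 239 CPM in KO ADP-Hep libraries, against 317, 203 and 326 CPM in KO PBS libraries. It had 982, 1001 and 1139 CPM in WT ADP-Hep libraries, against 196, 189.6 and 210.3 CPM in WT PBS libraries. WT ADP-Hep libraries stood apart, and the KO groups overlapped through KO PBS replicate 2. The log2 change was -0.33 ± 0.16 in KO cells (adjusted p = 0.18) and 2.39 ± 0.17 in WT cells (5.24-fold, adjusted p = 1.5e-06), and the difference was -2.71 ± 0.23.

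Srxn1 (ENSMUSG00000032802, chr2:152105516-152111376) had 125, 131 and 138 CPM in KO ADP-Hep libraries, against 143, 114 and 142 CPM in KO PBS libraries. It had 432, 423 and 529.7 CPM in WT ADP-Hep libraries, against 102, 99.7 and 106 CPM in WT PBS libraries. Its WT ADP-Hep libraries were again above all others, and the KO groups overlapped. Srxn1 changed by -0.02 ± 0.10 in KO cells (adjusted p = 0.9) and by 2.17 ± 0.10 in WT cells (4.49-fold, adjusted p = 4.3e-10), with a difference of -2.19 ± 0.14. Slc7a11, Txnrd1, Srxn1 and Gsr were the 4 of 10 members that changed at least 2-fold in WT cells, where 13.6% of all genes were called at that size.

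Hmox1 and Nqo1, the members most often used as reporters of NRF2 activity, responded modestly. Hmox1 (ENSMUSG00000005413, chr8:75093621-75100589) had 391, 429 and 406 CPM in KO ADP-Hep libraries, against 504, 435 and 507 CPM in KO PBS libraries. It had 627, 654 and 805 CPM in WT ADP-Hep libraries, against 390.4, 397 and 372 CPM in WT PBS libraries. No 2 groups of 1 genotype overlapped. Its log2 change was 0.85 ± 0.08 in WT cells (adjusted p = 6.2e-07), the difference was -1.08 ± 0.12, and the change in KO cells was -0.24 ± 0.08 with an adjusted p of 0.0488. That last call was lost when any one library outside the WT ADP-Hep group was left out, except KO PBS replicate 2.

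Nqo1 (ENSMUSG00000003849, chr8:107388225-107403206) was scarce in all groups. It had 12.2, 11.2 and 12.2 CPM in KO ADP-Hep libraries, against 12.1, 11.1 and 11.4 CPM in KO PBS libraries. It had 11.2, 11.5 and 12.2 CPM in WT ADP-Hep libraries, against 9.37, 8.54 and 9.55 CPM in WT PBS libraries. As for Gclm, only the WT PBS libraries were lower than the rest. Nqo1 changed by 0.05 ± 0.09 in KO cells (adjusted p = 0.74) and by 0.33 ± 0.09 in WT cells (adjusted p = 0.0029).

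**Figure D2:**
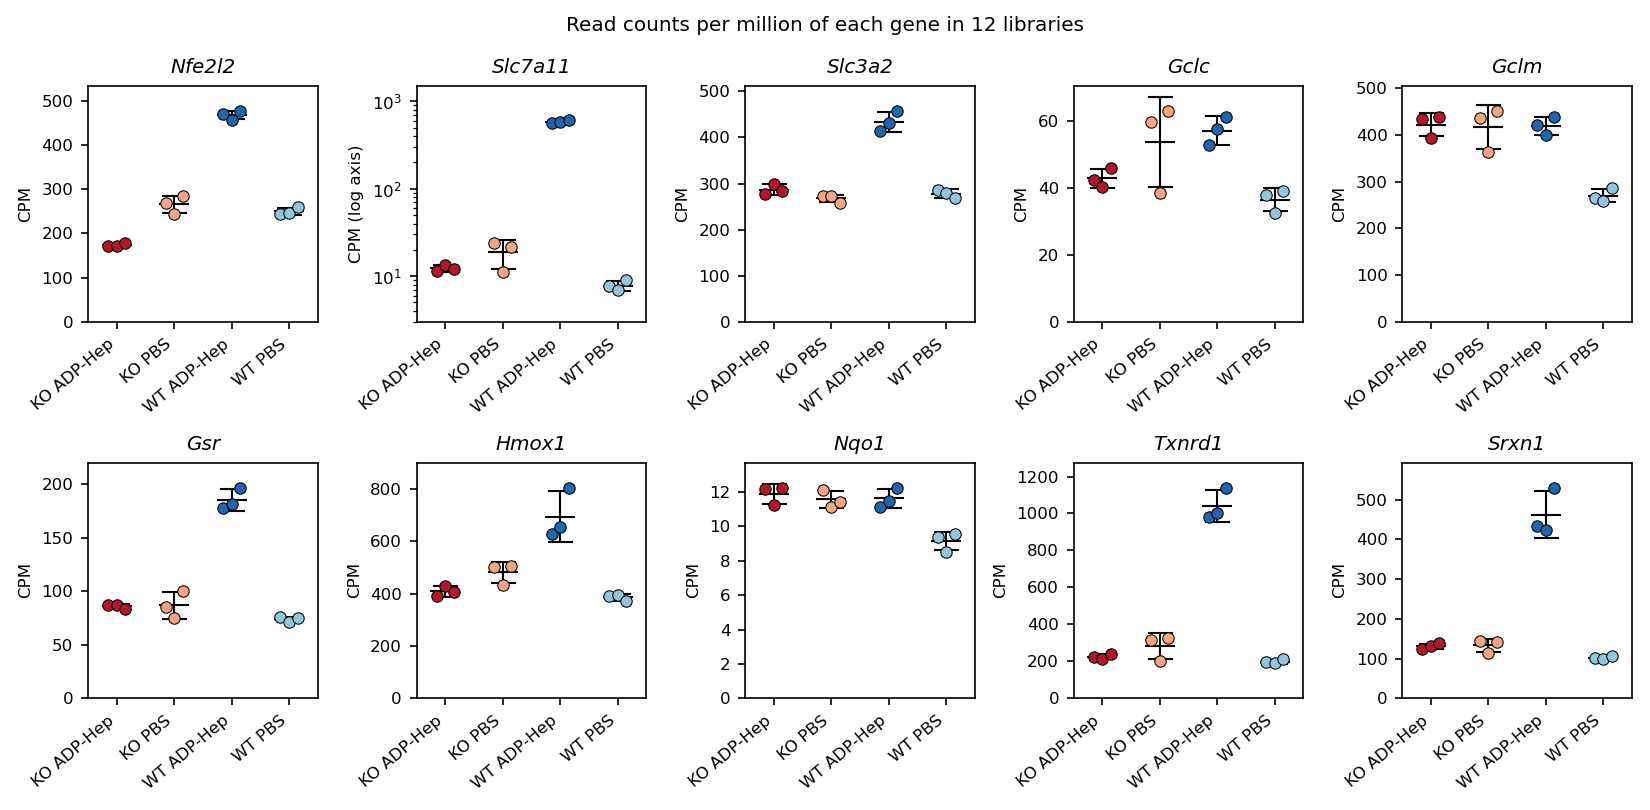
CPM of each of the 10 genes in 12 libraries, with 3 libraries a group as points and the group mean ± SD as bars, on an axis from 0 except for Slc7a11, whose axis is logarithmic. WT ADP-Hep libraries stand above all others for 7 genes (for Slc7a11 at 559 to 607 CPM), Gclm and Nqo1 differ from this in that only WT PBS libraries are low, and for Gclc the KO PBS libraries reach from 38.4 to 62.9 CPM.

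Under ADP-Hep, KO libraries were lower than WT libraries for 7 of 10 genes by the edgeR test, where 64.8% of all genes were called, 32.8% higher and 32% lower. The libraries did not overlap for 8 of 10, all lower in KO cells, where 33.7% of all genes were wholly lower. This comparison uses the same ADP-Hep libraries as the responses above. Slc7a11 was 47.8-fold lower (-5.58 ± 0.20 on the log2 scale), Txnrd1 4.63-fold lower (-2.21 ± 0.17), Srxn1 3.52-fold lower (-1.81 ± 0.10), Nfe2l2 2.69-fold lower (-1.43 ± 0.05) and Gsr 2.15-fold lower (-1.11 ± 0.07). Hmox1 differed by -0.77 ± 0.08 and Slc3a2 by -0.60 ± 0.05. Gclc was at -0.40 ± 0.16 (adjusted p = 0.0539), with all 3 KO libraries below all 3 WT libraries. It was called by DESeq2 (adjusted p = 0.0267), and by edgeR when any one KO PBS library was left out. Gclm at 0.01 ± 0.07 and Nqo1 at 0.05 ± 0.09 were not called, but with library totals over the rows used as the scaling both were called higher in KO cells.

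Under PBS the order was the other way: 5 of 10 genes were called higher in KO cells and none lower, where 11.4% of all genes were called, 5.57% higher and 5.82% lower. The number lower was likewise 0 at an unadjusted p under 0.05, with DESeq2 and with limma-voom. Gclm differed most clearly, by 0.62 ± 0.07 (1.54-fold, adjusted p = 3.9e-06). Slc7a11 differed by 1.22 ± 0.27 (2.33-fold, adjusted p = 0.0216), although at 11.3 to 24.1 CPM in KO PBS libraries it remained a scarce transcript. Srxn1 (0.37 ± 0.10), Nqo1 (0.33 ± 0.09) and Hmox1 (0.32 ± 0.08) were the other called genes, with adjusted p of 0.0312, 0.0241 and 0.0261. All 3 KO PBS libraries were above all 3 WT PBS libraries for these 5 genes, where 13.2% of all genes did not overlap in that direction. Gclc (0.54 ± 0.17), Txnrd1 (0.50 ± 0.16) and Gsr (0.23 ± 0.08) were not called, with adjusted p of 0.0833, 0.0947 and 0.0665. DESeq2 called 7 genes higher: it called these 3, with adjusted p of 0.022, 0.0197 and 0.0389, and did not call Nqo1 (adjusted p = 0.0848). Nfe2l2 (0.09 ± 0.05) and Slc3a2 (-0.06 ± 0.05) had overlapping libraries.

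**Figure D3:**
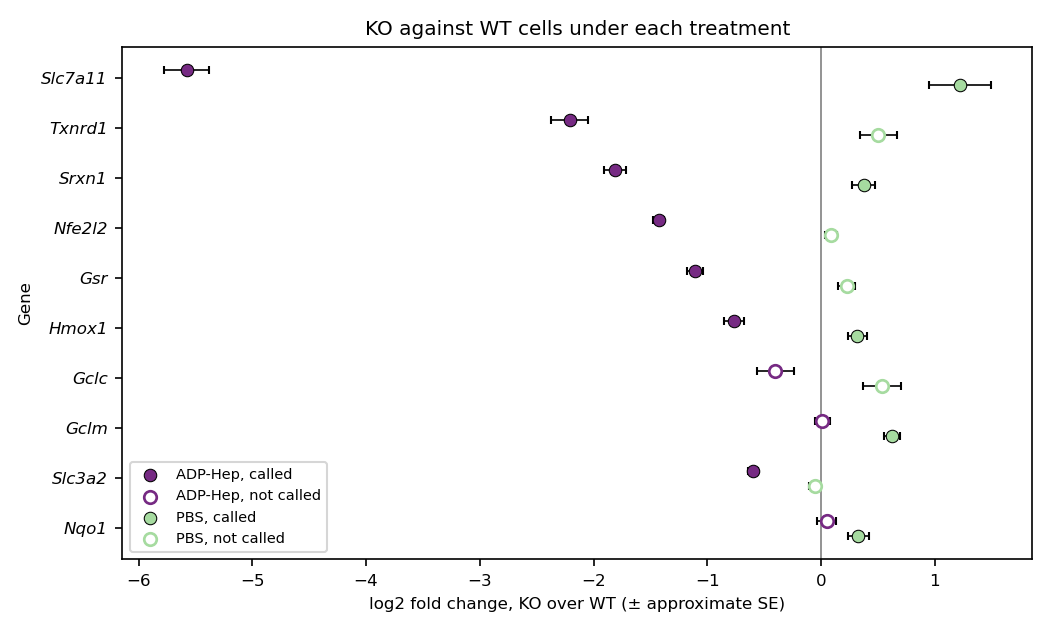
Log2 fold change of KO over WT cells for each gene under ADP-Hep (purple, upper point) and under PBS (green, lower point), with approximate standard errors as bars and open points for differences that were not called. Under ADP-Hep the points run from -5.58 for Slc7a11 to 0.05 for Nqo1, and under PBS from -0.06 for Slc3a2 to 1.22 for Slc7a11.

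The PBS result rested on few libraries, and 1 of them differed from its group. KO PBS replicate 2 was the lowest of its group for 9 of 10 genes, where it was lowest for 33.2% of all genes tested. The spread was widest for Slc7a11, whose highest KO PBS library was 2.14 times its lowest, then Gclc (1.64 times) and Txnrd1 (1.60 times). Summed over the 10 genes the KO PBS libraries had 2122, 1769 and 2165 CPM, beside 1771 to 1837 CPM in KO ADP-Hep libraries, 4146 to 4722 CPM in WT ADP-Hep libraries and 1589.8 to 1634 CPM in WT PBS libraries. This library also had the largest share of its counts in the rows used (85.2%) and the smallest share in its most abundant gene (14.4%). Without KO PBS replicate 2, 8 genes were called higher in KO cells under PBS (Gclc, Txnrd1 and Gsr in addition). In that fit 5 were called lower after ADP-Hep in KO cells. On the log2 scale Slc7a11 was then at -0.90, Gclc at -0.51 and Txnrd1 at -0.52. Without KO PBS replicate 1, or without WT PBS replicate 1 or 3, 2 genes were called higher in KO cells under PBS. Without KO PBS replicate 3 or WT PBS replicate 2 the number was 1. Gclm was called in each of these fits.

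The summed neutrophil marker transcripts differed between the 2 KO groups. The 9 markers, which include Ngp, Ltf and S100a8, summed to 169 to 179 CPM in KO ADP-Hep libraries, 242 to 269.9 CPM in KO PBS libraries, 201 to 224 CPM in WT ADP-Hep libraries and 206 to 227 CPM in WT PBS libraries. None was at 0 counts throughout a group. KO ADP-Hep was thus the lowest group and KO PBS the highest, and 5 of the 8 neutrophil markers tested (62.5%) were called lower after ADP-Hep in KO cells, beside 15.3% of all genes. Between genotypes under PBS, 2 of the 8 were called higher in KO cells and 1 lower (25% and 12.5%), beside 5.57% and 5.82% of all genes. Under ADP-Hep, 7 of the 8 were called lower in KO cells and 1 higher (87.5% and 12.5%), beside 32% and 32.8% of all genes. The difference of responses was called below 0 for 4 of the 8 (50%) and above 0 for 0. Of all genes, 24.6% were called below 0 and 24.9% above 0. In KO PBS replicate 2 the sum was 265 CPM, within the range of its group. The part of these transcripts in the results for KO cells was not tested. In these bulk libraries fewer cells of a type and less RNA per cell cannot be told apart.

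Levels of different genes were compared per kilobase of exon, with the union of all annotated exons as the length. The transcripts present in these cells may be shorter, so the order of the genes can depend on this choice. Hmox1 was the most abundant member in all 4 groups, at 233 ± 11.1 CPM per kb in KO ADP-Hep, 275 ± 23.3 in KO PBS, 397 ± 55.0 in WT ADP-Hep and 221 ± 7.47 in WT PBS cells (SD, n = 3 each). Slc7a11 was the least abundant in 3 groups, at 0.887 ± 0.0771 CPM per kb in KO ADP-Hep, 1.36 ± 0.489 in KO PBS and 0.561 ± 0.0733 in WT PBS cells, but stood above Gclc and Nqo1 in WT ADP-Hep cells, at 41.9 ± 1.70. In WT ADP-Hep cells the order below Hmox1 was Srxn1 (164 ± 21.0), Txnrd1 (147 ± 12.1), Nfe2l2 (123 ± 2.67), Slc3a2 (123 ± 6.21), Gsr (67.4 ± 3.67) and Gclm (66.7 ± 3.01). The neighbours Srxn1 and Txnrd1, Nfe2l2 and Slc3a2, and Gsr and Gclm did not differ beyond their SD. In WT PBS cells it was Slc3a2 (78.9 ± 2.60), Nfe2l2 (65.8 ± 2.27), Gclm (43.0 ± 2.27), Srxn1 (36.3 ± 1.10), Txnrd1 (28.0 ± 1.504), Gsr (26.8 ± 0.885), Gclc (9.68 ± 0.907) and Nqo1 (5.89 ± 0.347). There only Txnrd1 and Gsr did not differ beyond their SD. In KO cells Slc3a2 came after Hmox1 in both treatments. Srxn1 and Nfe2l2, at 46.5 ± 2.39 and 45.8 ± 1.21, and Txnrd1 and Gsr, at 31.7 ± 1.88 and 31.3 ± 0.867, were within their SD in KO ADP-Hep cells. In KO PBS cells Slc3a2, Nfe2l2 and Gclm did not differ from their neighbours in that order beyond their SD, nor did Srxn1, Txnrd1 and Gsr.

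Genes that control or assist NRF2 fell or were not called in KO cells, and most rose in WT cells. Of 11 regulators and partners tested, 0 rose and 4 fell in KO cells, and 6 rose and 1 fell in WT cells, and the difference of responses was below 0 for 6 and above 0 for 1. Of all genes, 13.7% rose and 15.3% fell in KO cells, 31.9% rose and 31.6% fell in WT cells, and the difference was below 0 for 24.6% and above 0 for 24.9%. Sqstm1, whose p62 protein sequesters KEAP1, averaged 425 ± 3.80 CPM in KO ADP-Hep and 719 ± 71.9 CPM in KO PBS cells, against 1781 ± 160.3 CPM in WT ADP-Hep and 618 ± 12.9 CPM in WT PBS cells. Its log2 change was -0.76 ± 0.06 in KO cells and 1.53 ± 0.06 in WT cells, so it moved in opposite directions like Nfe2l2. Nfe2l1, a relative of Nfe2l2 that controls proteasome genes, also fell in KO cells (-0.35 ± 0.05) and rose in WT cells (0.68 ± 0.05). Among the small MAF partners, Maff changed by -0.53 ± 0.34 in KO cells (adjusted p = 0.26) and rose by 2.80 ± 0.24 in WT cells, and Mafg by 0.11 ± 0.05 (adjusted p = 0.11) and 0.58 ± 0.05. The other small MAF, Mafk, which was added after its values were seen, fell in KO cells (-0.59 ± 0.09, adjusted p = 1.1e-05) and was not called in WT cells (0.15 ± 0.08, adjusted p = 0.13). Bach1, a repressor that competes with NRF2 at Hmox1, fell in both genotypes, by 0.24 on the log2 scale in KO cells and by 0.57 in WT cells. Keap1 was not called in either, at -0.05 ± 0.06 in KO cells and 0.09 ± 0.05 in WT cells. Cul3 and Rbx1, of the ubiquitin ligase to which KEAP1 hands NRF2, were also added after their values were seen. Both were among the 6 that rose in WT cells, by 0.39 ± 0.06 and 0.19 ± 0.05. In KO cells Cul3 and Rbx1 were not called (0.05 ± 0.06 and 0.12 ± 0.06).

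**Figure D4:**
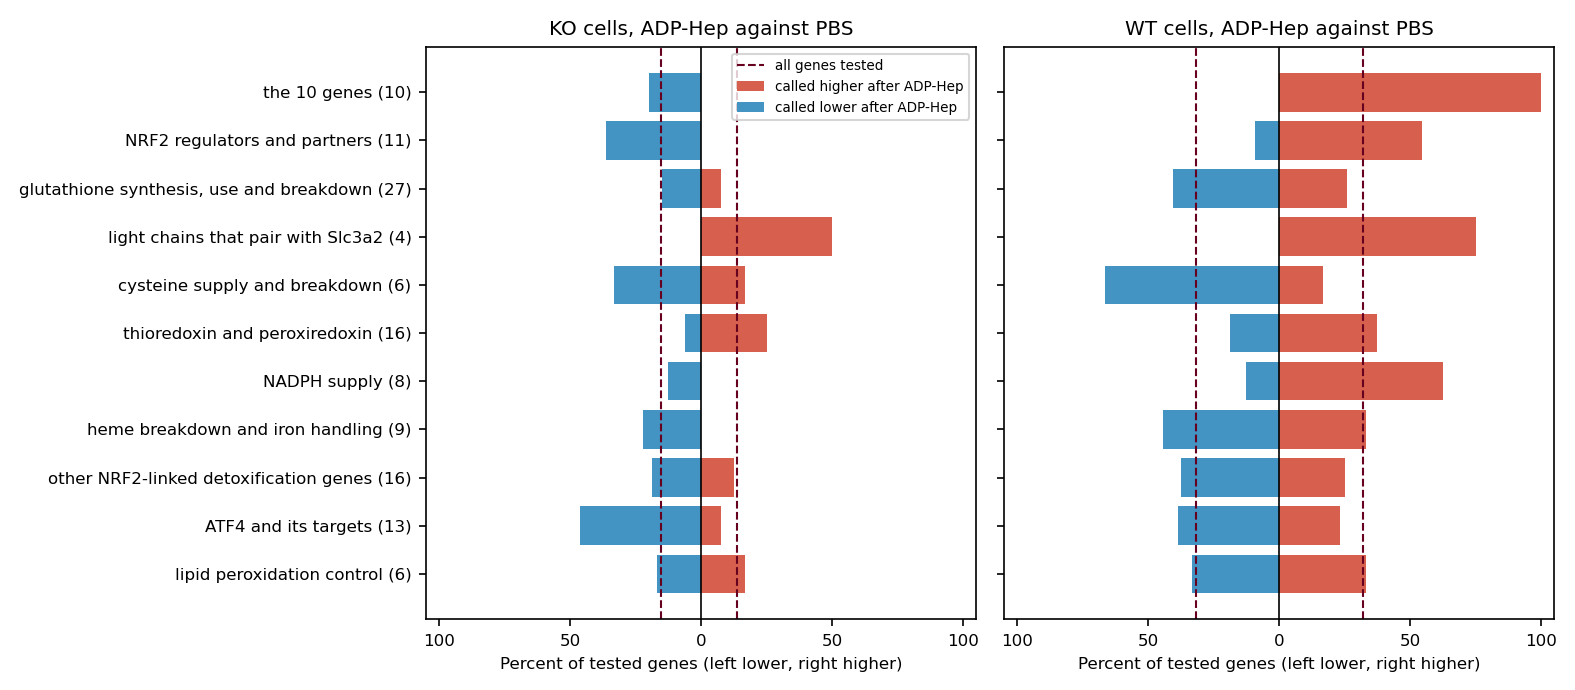
Percent of the tested genes of each list (number tested in brackets) called higher, to the right, and lower, to the left, after ADP-Hep in KO cells (left panel) and WT cells (right panel), with dashed lines at the share of all 12261 genes called in that direction. The 10 genes reach 100% higher in WT cells, beside 31.9% of all genes, and the wider glutathione list has 7 higher and 11 lower of 27 in WT cells.

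The wider glutathione genes were called at shares not far from those of all genes. Of 27 tested of 30 listed, 2 rose and 4 fell in KO cells and 7 rose and 11 fell in WT cells (7 fell without WT ADP-Hep replicate 2). In percent, 7.41% rose and 14.8% fell in KO cells, beside 13.7% and 15.3% of all genes, and 25.9% rose and 40.7% fell in WT cells, beside 31.9% and 31.6%. The list's median log2 change was -0.03 in KO cells and -0.16 in WT cells. Of the genes with the clearest difference, Abcc1, an exporter of glutathione conjugates, averaged 168 ± 4.65 CPM in KO ADP-Hep and 183 ± 7.47 CPM in KO PBS cells, against 465 ± 22.2 CPM in WT ADP-Hep and 165 ± 9.91 CPM in WT PBS cells. Glrx, glutaredoxin, rose in both genotypes, by 0.29 ± 0.05 in KO cells and by 1.60 ± 0.05 in WT cells. Ggct, which breaks down gamma-glutamyl peptides, changed by 0.34 ± 0.21 in KO cells (adjusted p = 0.24) and rose by 1.74 ± 0.16 in WT cells, and Gsta3, a glutathione transferase, by 0.02 ± 0.07 (adjusted p = 0.89) and 0.64 ± 0.07.

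Amino acid supply gave a mixed picture beside Slc7a11. Of the 4 other light chains tested, 2 rose in KO cells and 3 in WT cells, where 13.7% and 31.9% of all genes rose. Slc7a7 rose in both genotypes, by 0.55 ± 0.07 in KO cells and 0.57 ± 0.07 in WT cells (difference -0.03 ± 0.10, not called). Slc7a8 also rose in both, by 0.30 ± 0.08 and 0.70 ± 0.07, with a called difference of -0.40 ± 0.11. Slc7a6 was not called in KO cells (-0.05 ± 0.10) and rose by 0.52 ± 0.09 in WT cells, with a called difference of -0.57 ± 0.14. The difference was thus below 0 for 2 of the 4 and above 0 for 0, beside 24.6% and 24.9% of all genes. Slc7a5, the leucine carrier, was not called in either genotype. Of 6 genes of cysteine supply and breakdown, 1 rose and 2 fell in KO cells, beside 13.7% and 15.3% of all genes, and 1 rose and 4 fell in WT cells, beside 31.9% and 31.6%. The KO number of falls was 1 without KO PBS replicate 1 or the KO ADP-Hep library with no number, and the number of rises was 2 without KO PBS replicate 2. Ctns, the lysosomal cystine exporter, fell in both, by 0.41 on the log2 scale in KO cells and by 1.14 in WT cells. Ethe1, which oxidises persulfides in mitochondria, rose by 0.37 ± 0.07 in KO cells and fell by 0.49 in WT cells.

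In the thioredoxin and peroxiredoxin list, 4 rose and 1 fell of 16 in KO cells (2 rose without the KO ADP-Hep library with no number), and 6 rose and 3 fell in WT cells. These are 25.0% and 6.25% in KO cells, beside 13.7% and 15.3% of all genes, and 37.5% and 18.8% in WT cells, beside 31.9% and 31.6%. Prdx5, a mitochondrial and peroxisomal peroxiredoxin, rose by 0.16 ± 0.05 in KO cells and by 1.16 ± 0.05 in WT cells. Prdx6 changed by 0.09 ± 0.04 in KO cells (adjusted p = 0.13) and rose by 0.81 ± 0.04 in WT cells. The sestrins went the other way: Sesn1 rose by 0.55 ± 0.05 in KO cells and fell by 0.91 in WT cells, and Sesn2 rose by 0.29 ± 0.07 and fell by 0.77. Under PBS, 5 of the 16 were higher in KO cells (31.2%, beside 5.57% of all genes) and 0 lower (5.82% of all genes).

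Enzymes that supply NADPH to Gsr and Txnrd1 were called higher in WT cells for 5 of 8 and lower for 1, and in KO cells for 0 and 1. Of all genes, 31.9% were called higher and 31.6% lower in WT cells, and 13.7% and 15.3% in KO cells. Pgd, of the pentose phosphate pathway, averaged 596 ± 13.99 CPM in KO ADP-Hep and 573 ± 19.9 CPM in KO PBS cells, against 777 ± 55.0 CPM in WT ADP-Hep and 518 ± 2.83 CPM in WT PBS cells. Me1, malic enzyme, rose by 0.68 ± 0.08 and G6pdx, of the same pathway as Pgd, by 0.22 ± 0.05 in WT cells, and neither was called in KO cells (-0.07 ± 0.09 and -0.10 ± 0.05). Idh1, cytosolic isocitrate dehydrogenase, fell in both, by 0.24 in KO cells and by 0.92 in WT cells. Nnt, the mitochondrial transhydrogenase, has 2 rows under its symbol, of which 1 lay in the rows used. That row was scarce in all groups, with means between 0.772 and 1.40 CPM and no call. The other row was left out, so the level of the gene as a whole is not given.

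Around Hmox1, 0 of 9 genes of heme breakdown and iron handling rose and 2 fell in KO cells (1 without the KO ADP-Hep library with no number), and 3 rose and 4 fell in WT cells. In WT cells these are 33.3% and 44.4%, beside 31.9% and 31.6% of all genes, and in KO cells 13.7% of all genes rose and 15.3% fell. Slc40a1, ferroportin, which exports the iron that heme breakdown frees, fell in both genotypes, by 0.88 in KO cells and by 1.96 in WT cells. Blvrb, a biliverdin reductase, Fth1, ferritin heavy chain, whose reads may be shared with processed pseudogenes, and Slc48a1, a heme transporter, rose in WT cells by 0.46 ± 0.05, 0.32 ± 0.04 and 0.45 ± 0.05. In KO cells they were at 0.02 ± 0.05, -0.06 ± 0.04 and 0.06 ± 0.05 and were not called. Among 16 other detoxification genes linked to NRF2, 2 rose and 3 fell in KO cells (1 fell without KO PBS replicate 3), and 4 rose and 6 fell in WT cells. These shares, 12.5% and 18.8% in KO cells and 25.0% and 37.5% in WT cells, were near those of all genes. Esd, an esterase, rose by 0.98 ± 0.05 and Akr1b8, an aldo-keto reductase, by 0.49 ± 0.07 in WT cells, whereas Nqo2, a relative of Nqo1, fell by 0.50 and Ephx1, an epoxide hydrolase, by 0.71.

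ATF4 and its targets, which share Slc7a11 with NRF2, were called lower for 6 of 13 and higher for 1 in KO cells, with a list median of -0.38 on the log2 scale, beside 0.01 for all genes. Of all genes 15.3% were called lower and 13.7% higher in KO cells, against 46.2% and 7.69% of the list. In WT cells 3 rose and 5 fell, and only 2 fell without WT PBS replicate 2 and 3 without any one of WT PBS replicate 1 and the 3 WT ADP-Hep libraries, where 31.9% of all genes rose and 31.6% fell. Atf4 itself averaged 62.0 ± 3.46 CPM in KO ADP-Hep and 118 ± 17.5 CPM in KO PBS cells, against 106 ± 2.10 CPM in WT ADP-Hep and 100.2 ± 7.87 CPM in WT PBS cells. It fell by 0.93 in KO cells and was at 0.08 ± 0.09 in WT cells (adjusted p = 0.45), with a difference of -1.004 ± 0.12. Atf3 fell likewise by 0.79 in KO cells and was at -0.04 ± 0.07 in WT cells. Mthfd2, a mitochondrial folate enzyme, fell by 0.41 in KO cells and rose by 0.93 ± 0.07 in WT cells. Sesn2, which is also on this list, went the other way. It rose by 0.29 ± 0.07 in KO cells and fell by 0.77 in WT cells.

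Genes that control lipid peroxidation, the process that cystine import and glutathione hold back in ferroptosis, were called higher for 1 and lower for 1 of 6 in KO cells (16.7% each), near the 13.7% and 15.3% of all genes. The KO number of falls was 2 without KO PBS replicate 2 or WT PBS replicate 3. In WT cells 2 rose and 2 fell (33.3% each), near the 31.9% and 31.6% of all genes, and 1 fell without any one of 8 of the libraries. Gch1, which makes tetrahydrobiopterin, rose by 0.41 ± 0.11 in KO cells and by 2.35 ± 0.08 in WT cells. Acsl4, which loads polyunsaturated fatty acids into lipids, changed by -0.16 ± 0.07 in KO cells (adjusted p = 0.083) and rose by 0.96 ± 0.06 in WT cells. Aifm2, a ubiquinone reductase, fell by 0.23 in KO cells and was at -0.02 ± 0.06 in WT cells. Dhodh was at 0.16 ± 0.10 in KO cells (adjusted p = 0.27) and fell by 0.24 in WT cells.

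The members fell into more than 1 pattern over the 12 libraries. Pearson's r of log2 CPM was 0.995 between Slc7a11 and Txnrd1, 0.993 between Slc7a11 and Srxn1 and 0.988 between Slc7a11 and Gsr, while Gclm and Nqo1 followed each other (0.960) more than they followed Slc7a11 (0.474 and 0.424). Nfe2l2 was at 0.882 with Slc7a11 and at 0.0797 with Nqo1. Outside the 10 genes, those most like Slc7a11 were Zdhhc18 (0.994), Ccdc115 (0.992), Il12b (0.992), Ampd3 (0.992) and Fcgr2b (0.991). Pearson's r does not take in the size of a change. Among them the log2 change in WT cells ran from 0.46 for Ccdc115 to 10.6 for Il12b, beside 6.19 for Slc7a11. Those most like Nfe2l2 were Glipr1 (0.996), Slc20a1 (0.993), Pogk (0.992), Mcoln2 (0.991) and Sqstm1 (0.9901). These values describe 12 libraries that form 4 groups and share the groups' differences and the scaling of each library, and they carry no test.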

How the data were processed

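RNA of 12 libraries was prepared with a stranded mRNA kit, per the labels' protocols. The authors deposited 1 table of raw read counts per gene for all libraries. The processing notes of the submitters list, per the labels, DESeq2, RSEM, featureCounts, STAR, Trim Galore and FastQC, with mm10 and hg38 as builds and no roles stated, and the strand setting of the counting is not given in the sources used here. The values were whole numbers and were tested as deposited. Mean log2 counts of KO and WT libraries were compared along the table, which gave r = 0.996 in the 37542 rows used, 0.042 below the break and 0.979 there with the KO columns moved up by 1 row. A margin of 100 rows before the break was also left out, so that 19206 rows were not used.

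Genes that passed edgeR's filterByExpr (12261) were scaled by TMM and fitted as 4 group means with edgeR 4.0.16 in R 4.3.3 (glmQLFit with robust estimation, glmQLFTest), with Benjamini-Hochberg adjustment over all genes tested. The biological coefficient of variation was 4.81%. The script was tested on simulated data. CPM values use the same scaling, and lengths are unions of exons in GENCODE for mm10. The named genes are all members, Alpk1, up to 4 genes from each pathway list with the smallest p for the difference of responses, plus Keap1, Bach1, Nnt, Atf4 and Slc7a5, and the 5 genes most like Slc7a11 and Nfe2l2 by Pearson's r of log2 CPM (prior count 2). Mafk, Cul3 and Rbx1 were named in addition, after their values were seen. The members and lists were chosen with earlier results of these data known. Alternatives were 3 other scalings, DESeq2 1.42.0, limma-voom (limma 3.58.1), 2 other filters, no robust estimation, fits of only the groups compared, a replicate block, 2 treatments of the rows and leaving out each library.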

Additional observations from a re-analysis of the deposited data

Results flagged for a closer look

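For 9 of the 10 genes the response to ADP-Hep differed between KO and WT cells by the test of the difference itself, an interaction term in the edgeR fit, with Benjamini-Hochberg adjustment over 12261 genes. On the log2 scale (KO response minus WT response) it was -6.80 for Slc7a11, -2.71 for Txnrd1, -2.19 for Srxn1, -1.51 for Nfe2l2, -1.33 for Gsr, -1.08 for Hmox1, -0.94 for Gclc, -0.61 for Gclm and -0.54 for Slc3a2. Of all genes tested, 49.5% passed the same test.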

How the results depend on the processing

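Under all 12 other settings and all 12 fits with 1 library left out, 10 of 10 genes were called higher in WT cells, and 9 of 10 were called below 0 in the difference of responses wherever that could be fitted. A fit of only the groups compared gives no difference of responses. Of 1190 recomputed log2 changes, 23 turned their sign, none of them called. The 2 genes lower in KO cells after ADP-Hep became 1 with DESeq2 size factors, library totals over the rows used, limma-voom, all rows as deposited, or lower rows with the KO columns moved up, 5 with library totals over all rows, 4 without robust estimation, and 1 to 5 with 1 library left out. The number stayed 2 with DESeq2, which called Slc7a11 in place of Hmox1. With library totals over the rows used, 1 gene (Slc3a2) was higher in KO cells after ADP-Hep and 2 (Gclm and Nqo1) were higher in KO than in WT cells under ADP-Hep. The 5 genes higher in KO cells under PBS became 8 with library totals over all rows and 1 to 8 with 1 library left out. All genes called in that comparison (1397) became 3150 with all rows as deposited and 829 to 1565 with 1 library left out. The cause of these changes was not tested, except that 3150 includes rows in which KO and WT columns hold different genes. The call of Slc7a11 under PBS was lost in a fit of only the groups compared.

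Turned signs in KO cells after ADP-Hep were, by library totals over the rows used, 0.037 for Gsr and 0.023 for Srxn1, and by library totals over all rows -0.024 for Gclm and -0.0066 for Nqo1. For Gsr they were also 0.0043 with limma-voom and 0.0050 without the filter. With 1 library left out Gclm ran from -0.068 to 0.080, Gsr from -0.107 to 0.109 and Srxn1 from -0.123 to 0.036. Between genotypes under ADP-Hep, Gclm was at -0.0021 with DESeq2 size factors, -0.0027 with DESeq2 and -0.028 to 0.058 with 1 library left out. Slc3a2 under PBS was at 0.060 with library totals over all rows. Library totals over the rows used moved the median log2 change of all genes to -0.12 for the WT response, 0.16 for the difference and 0.17 for KO against WT under ADP-Hep, and totals over all rows moved it to 0.12 under PBS. The share of calls that were higher became 61.5% by the first and 28.7% by the second for the KO response (47.3% with TMM). By the first it became 37.8% for the WT response (50.3%), 69.1% for the difference (50.3%) and 67.3% under ADP-Hep (50.6%). By the second it became 88.6% under PBS (48.9%). Of 2380 recomputed list counts, 180 moved by more than 1.5 times.

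No pairing of libraries by replicate number was seen, which does not exclude one. Of 15 same-numbered pairs, 4 deviated from their group means with a correlation over 0.1, in a range from -0.37 to 0.22. Pairs with different numbers ran from -0.22 to 0.24, and the unnumbered library was in no pair. A fit with the replicate number as a block, without the unnumbered library, called 3 genes lower in KO cells, 10 higher in WT cells, 9 below 0 in the difference, 8 lower in KO under ADP-Hep and 7 higher in KO under PBS. In the block fit Gclm was at -0.057 in KO cells after ADP-Hep and at -0.073 between genotypes under ADP-Hep, and Nqo1 at -0.0011 there. Depth limits the scarce members most: Slc7a11 had 97 to 210 counts in a WT PBS library and Nqo1 120 to 225.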
